A study of Daphnia magna with 84 samples.

Results

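Gene models that lie on scaffold01409 of the water flea Daphnia magna were followed along the scaffold, by day and by coal ash concentration. A scaffold is a stretch of assembled genome, and a gene model is a predicted gene with its exons. The table of counts places 62 gene models with IDs beginning in APZ42 on this scaffold, between bases 1916 and 430699, and the 54 with at least 10 counts summed over all 84 libraries were taken as members, selected on their position and on this sum of counts, in order of their lowest start. By the same rule 19595 of the 26646 APZ42 models of the whole table are kept. Of the 8 models left out on the scaffold, 3 had no counts in any library. APZ42_023097 with 10 counts and APZ42_023145 with 11 lay just inside the minimum, and APZ42_023115 with 8 and APZ42_023161 with 6 just outside it. The scaffold was picked out with results of these data in view, because neighbouring models on it were higher after day 6.

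Each library was made from 1 whole animal by RNA sequencing after depletion of ribosomal RNA. Per the labels, animals ate the green alga C. reinhardtii that had been held in a coal ash mixture, and each of the 6 mixture strengths takes its name from the mercury in it, although it holds the other constituents of the ash too. These were 0.015, 0.06 and 0.12 nM Hg/L, and above them 0.25, 1 and 4 nM Hg/L. A further group has concentration 0, and animals were taken at days 6, 10, 17 and 24, which gives 28 groups of 3 animals. The libraries at concentration 0 carry the same treatment label, coal ash, as the exposed ones, so groups were taken from the concentration label. The labels give neither strain nor sex, and no brood status for single animals. Replicate 3 of 0.06 nM Hg/L at day 24 has a title number that falls within those of 0.12 nM Hg/L, and replicate 1 of 0.12 nM Hg/L has the same title number at day 6 and at day 24. Both were kept under their labels. Replicates are numbered in accession order, and p-values measure the spread between these animals. The 3 libraries of concentration 0 at day 24 had only 25520 to 121871 counts outside 5 dominant models and were left out, so day 24 holds the 18 exposed animals and 81 libraries were used.

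Daphnia reproduce mostly without mating, moult throughout life and carry their eggs and embryos in a brood pouch under the carapace, so that a whole-animal library can hold RNA of both. In Daphnia pulex, a related species, many genes lie side by side in groups of copies. Whether the members here are copies of one another was not analysed, since neither their sequences nor their names were in the sources used here. The models are therefore given by ID and position, with no function.

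Total counts per library ran between 11615188 and 27952023 in the 81 libraries, but most of them fell on the 5 dominant models. Outside these, the libraries held 408047 to 2596374 counts, with medians of 1992461, 1469071, 1248656 and 1371471 at days 6, 10, 17 and 24. Levels are given in CPM, counts brought to a common library size by trimmed mean of M-values scaling, and 1 count was worth 0.0227 to 0.428 CPM, with a median of 0.0473 CPM. Levels near these values rest on single counts. A lower level in a whole animal can come from fewer cells of a type or from less RNA per cell, and these cannot be told apart.

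The members were spread evenly over both strands, 26 plus and 28 minus, and had 1 to 15 exons with a median of 4. Most were weakly detected: 30 members averaged under 1 CPM, 10 averaged 5 CPM or more, and 13 were detected in every one of the 81 libraries. The span of 13 members overlapped a model on the other strand and that of 6 members a model on the same strand. The library kit marks strand, but the strand setting of the counting is not given in the sources used here, so overlapping members could share reads. Of the 54 members 39 passed the filter on low counts and were tested. The 15 others had 10 to 284 counts in all, with a highest mean of 0.256 CPM.

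Against day 6, edgeR's quasi-likelihood test with Benjamini-Hochberg adjustment over 12690 models called 22 of the 39 tested members at day 10 (17 higher, 5 lower), against 45.9% of all models. At day 17 it called 21 (16 higher, 5 lower), against 35.6%, and at day 24 among exposed animals 21 (16 higher, 5 lower), against 38.7%. With all 84 libraries fitted the day 24 calls were 12 higher and 10 lower. That setting moved the median log2 change of all models by -0.20, and its calls were not set beside those of all models. In the fit of 81 libraries, higher calls took 24.3%, 17.8% and 18.4% of all models at days 10, 17 and 24, and lower calls 21.6%, 17.8% and 20.3%. On days 10, 17 and 24 the tested members had median log2 changes of 0.69, 0.35 and 0.53, beside -0.01, 0.01 and -0.09 over all models. These comparisons led to the choice of the scaffold and share the day 6 animals, so their counts are a description only. On 2 other scaffolds, scaffold02581 with 191 tested models and scaffold03326 with 75, higher calls took 28.8% and 33.3% at day 10, 25.7% and 24.0% at day 17, and 34.0% and 26.7% at day 24. On scaffold01409 they took 43.6% at day 10 and 41% at each of the later days.

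The higher calls lay side by side. In order of position, the longest run of neighbouring tested members higher than at day 6 held 10 models between bases 275665 and 320150 at day 10. At day 17 it held 11 models between 282814 and 358287, and at day 24 it held 11 between 283622 and 361450. Together the 3 runs span 85786 bases, from 275665 to 361450, called the block below. The block holds 18 models, of which 17 are members and 15 were tested. One model inside it, APZ42_023128, had no counts. The nearest models end 2697 bases before it and begin 10847 bases after it.

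Since the block is drawn from these calls, its counts are fixed by that choice and nothing is read from them: 12 of its 15 tested members were called higher at day 10, 13 at day 17 and 12 at day 24, and none lower. Several of them (APZ42_023146, APZ42_023152, APZ42_023150 and APZ42_023144) had no or few counts at day 6 and could not have been called lower. Where groups on both sides of the comparison had no counts it could not be tested, which was so for 1, 2 and 3 block members at days 10, 17 and 24. A model with day and concentration as separate terms, chosen after seeing the data, called 12, 15 and 15 of the 15 higher. In either direction it called 44.1%, 33.3% and 35.8% of all models at days 10, 17 and 24. Before the block, 13 members were tested, of which 4 were higher and 4 lower at day 10, 1 higher and 3 lower at day 17, and 2 higher and 3 lower at day 24. After the block, 11 were tested, with 1 higher and 1 lower at day 10 and 2 higher and 2 lower at each of days 17 and 24.

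**Figure D1:**
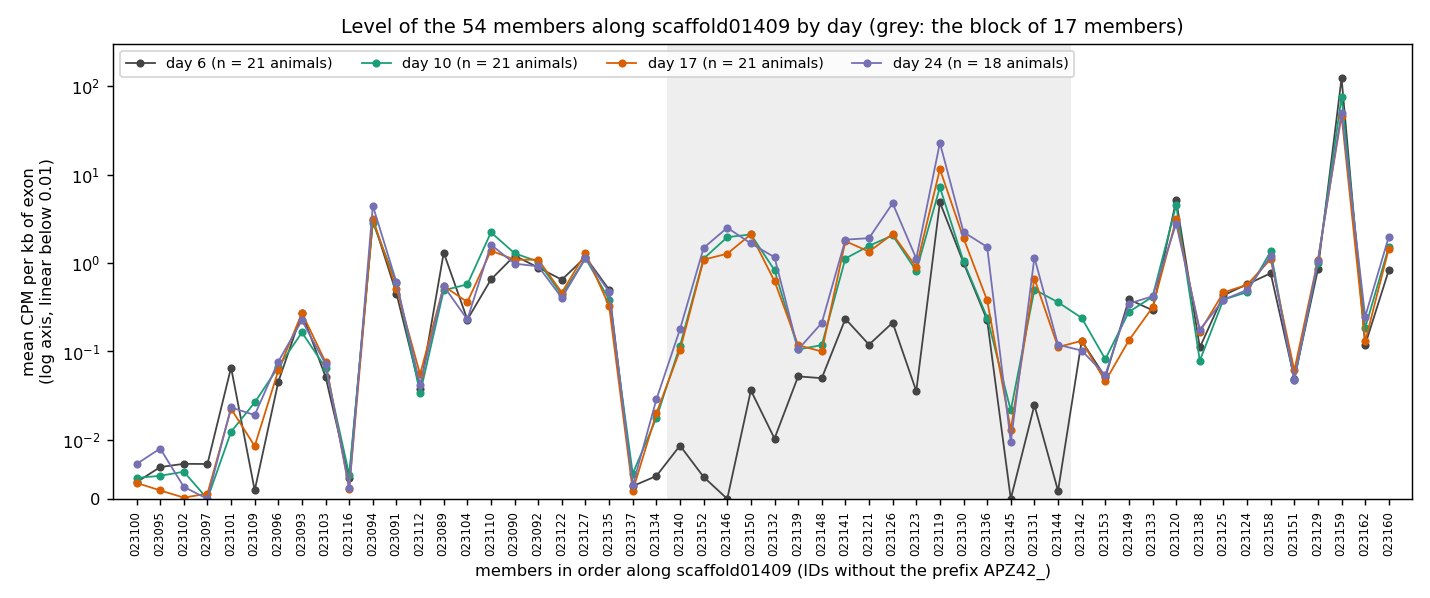
Mean level (CPM per kb of exon, on an axis that is linear near 0 and logarithmic above) of the 54 members in order along the scaffold, with 1 line for each of days 6, 10, 17 and 24 and the block shaded grey. Levels at day 6 lie below those of the later days throughout the block, while before and after it the 4 lines cross.

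The block's members also had a wide spread between animals. It was measured as the standard deviation of log2(CPM + 0.1) over the 81 libraries, and had a median of 2.34 in the block, 0.81 before it and 0.73 after it. Over all tested models the median was 0.78, with a 10th to 90th percentile range of 0.47 to 1.35. The block's own spread includes its differences between days.

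At day 6 the block was nearly silent in most animals. No block member had a median of 1 CPM or more at day 6, and 9 of 17 had a median of 0 CPM. APZ42_023146 and APZ42_023145 had no counts in any of the 21 animals of that day. At days 10, 17 and 24 the number with a median of 1 CPM or more was 2, 4 and 6. All 17 had a higher mean at each later day than at day 6, and with each day's highest animal left out this held for 17, 17 and 16 of them at days 10, 17 and 24. Between later days there was less of an order: 9 of 17 had a higher mean at day 17 than at day 10, and 14 of 17 at day 24 than at day 17.

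APZ42_023119 was the most abundant block member per length, at a mean of 11.2 CPM per kb over the 81 animals. It lies at bases 320197 to 327150 on the minus strand, has 12 exons and overlaps APZ42_023130. Its lowest, median and highest levels were 0.0510, 0.357 and 276 CPM at day 6, 0, 0.728 and 269 CPM at day 10, 0.160, 6.67 and 139 CPM at day 17, and 0.211, 16.7 and 352 CPM at day 24. The days overlapped, and at day 6 the second highest animal reached only 1.80 CPM. With the animal at 276 CPM counted, the means of days 10, 17 and 24 were 1.48, 2.37 and 4.03 times that of day 6. Without it, a setting chosen after seeing the data, they were 40.2, 64.5 and 118.04 times that of day 6. Here and below, the ratio at day 24 is to the 18 exposed animals of day 6.

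The 2 members that follow APZ42_023119 had a like pattern. APZ42_023130, of 3 exons on the plus strand at 327033 to 330297, ran from 0 to 63.7 CPM at day 6 with a median of 0.0743 CPM, and its medians were 0.214, 2.27 and 5.07 CPM at days 10, 17 and 24. APZ42_023136, of 3 exons on the minus strand at 330049 to 348997, had medians of 0.127, 0.251, 0.799 and 4.89 CPM at days 6, 10, 17 and 24. Its highest animals stood at 86.2, 66.7, 29.8 and 169 CPM on those days. Both overlapped between all days, and the highest day 6 animal was the same for the 3 members. With it, the means at days 10, 17 and 24 were 1.04, 1.90 and 1.92 times that of day 6 for APZ42_023130. For APZ42_023136 they were 1.07, 1.67 and 5.79 times. Without it, the ratios were 36.4, 66.7 and 82.96 for APZ42_023130 and 32.1, 50.2 and 197 for APZ42_023136.

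APZ42_023121 and APZ42_023126 lie next to each other near the middle of the block, on opposite strands, at 300088 to 308812 (plus) and 308814 to 315877 (minus). APZ42_023126 had lowest, median and highest levels of 0.199, 0.330 and 22.4 CPM at day 6, 0.0312, 5.88 and 151.3 CPM at day 10, 0.0558, 9.07 and 74.0 CPM at day 17, and 0.219, 18.2 and 100.9 CPM at day 24. For APZ42_023121 the medians were 0.110, 3.96, 9.75 and 10.6 CPM at days 6, 10, 17 and 24, with highest animals at 14.7, 42.2, 36.4 and 43.6 CPM. Ratios of means to day 6 were 9.72, 10.1 and 19.8 for APZ42_023126 and 13.1, 11.3 and 14.0 for APZ42_023121 at days 10, 17 and 24. The highest day 6 animal of both was the one at 276 CPM of APZ42_023119, and without it the ratios were 34.4, 35.6 and 75.04 for APZ42_023126 and 60.9, 52.4 and 68.96 for APZ42_023121. These 2 members had medians of several CPM already at day 10, when those of the 3 members before were under 1 CPM.

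At the start of the block lie members with few or no counts at day 6 and high levels in some animals later. APZ42_023132, of 7 exons at 283622 to 290420 on the minus strand, had no counts in 11 of 21 animals at day 6 and at most 0.200 CPM. Its medians were 0.566, 0.206 and 1.01 CPM at days 10, 17 and 24, its highest animals 20.1, 17.5 and 24.5 CPM, and its means 80.5, 60.3 and 104.3 times that of day 6. APZ42_023150, at 282814 to 283810 on the plus strand, overlaps it and had ratios of 57.97, 58.2 and 39.4, with a highest level of 0.428 CPM at day 6 and 22.7, 11.6 and 6.19 CPM later. These ratios rest on few counts at day 6.

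APZ42_023146, at 280049 to 280437, had means that were at least 66.5-fold, 48.6-fold and 77.2-fold higher at days 10, 17 and 24 than a floor of 3 counts over the day 6 animals. Its neighbour APZ42_023152, at 279438 to 280042, had 1 count at day 6, and its mean at day 10 was 289 times that of day 6, with a 95% counting interval of 51.4 to 11441. The first block member, APZ42_023140 at 275665 to 277762, stayed at or under 1.82 CPM in every animal, with ratios of 12.8, 11.4 and 27.8. Intervals and floors cover counting error only.

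The remaining block members had high or low ratios to day 6. APZ42_023123 at 317547 to 320150 had ratios of 22.8, 25.1 and 29.8 at days 10, 17 and 24 (the last was 44.8 without replicate 2 of 0.12 nM Hg/L of day 6, the animal at 276 CPM above), and APZ42_023131 at 352204 to 358287 had 20.3, 26.98 and 43.5. Both were under 1 CPM in every animal of day 6 and reached 10.7 and 28.4 CPM at day 24. APZ42_023141 at 298716 to 299416 had ratios of 4.81, 7.57 and 6.74, and it was detected only in that animal at day 6, at 2.81 CPM. APZ42_023148, a single-exon model at 293537 to 297845, had medians of 0.169, 0.388, 0.309 and 0.625 CPM at days 6, 10, 17 and 24 and its ratios were 2.37, 2.004 and 3.87.

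The last 3 were barely detected. APZ42_023139, at 290948 to 292359, had ratios of 2.02, 2.25 and 1.97 at days 10, 17 and 24 and never exceeded 0.443 CPM. APZ42_023145, at 350364 to 351135, never exceeded 0.125 CPM. APZ42_023144, at 360138 to 361450, had 1 count at day 6 and at most 0.784 CPM later, except for 2 animals of day 10, replicates 1 and 3 of 1 nM Hg/L, at 5.41 and 1.34 CPM.

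Animals of the same day differed widely in the block. The summed level of the 17 members had a median of 1.46 CPM at day 6 (range 0.764 to 467), 13.04 CPM at day 10 (0.874 to 476), 69.998 CPM at day 17 (1.27 to 258) and 96.98 CPM at day 24 (1.30 to 642). The ranges of the 4 days overlapped almost wholly. As a share of the counts outside the 5 dominant models, the block took medians of 0.00194%, 0.0180%, 0.104% and 0.1358% at days 6, 10, 17 and 24.

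With a level of 5 CPM in any block member taken as detection, 20 of 21 animals had none at day 6, 10 of 21 at day 10, 7 of 21 at day 17 and 4 of 18 at day 24. Animals with 5 or more members at that level numbered 1, 5, 10 and 11. At a minimum of 1 CPM the animals with none numbered 17, 6, 4 and 3, and at 10 CPM 20, 12, 8 and 4, so the order of the days was the same.

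**Figure D2:**
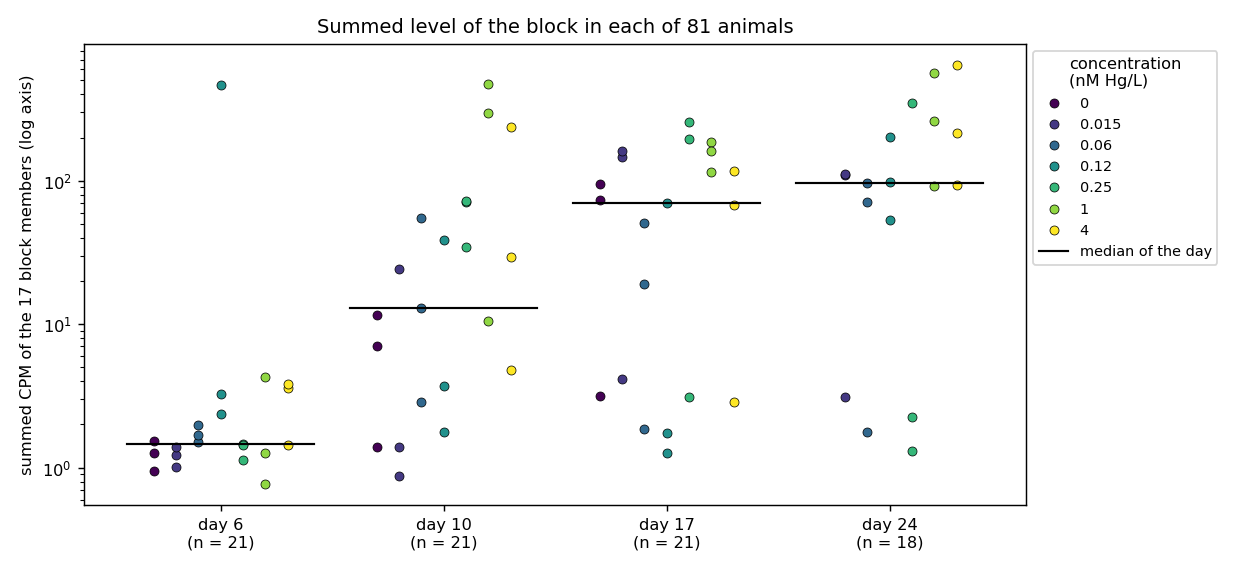
Summed level of the 17 block members (CPM, logarithmic axis) in each of 81 animals at days 6, 10, 17 and 24, coloured by concentration, with the median of each day as a bar. The medians are 1.46, 13.04, 69.998 and 96.98 CPM, and 1 animal of day 6 stands at 467 CPM.

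The animal at 467 CPM at day 6, replicate 2 of 0.12 nM Hg/L, differed from the 20 others of that day. It had 276 CPM of APZ42_023119, 86.2 of APZ42_023136, 63.7 of APZ42_023130, 22.4 of APZ42_023126 and 14.7 of APZ42_023121, and it was the highest of the day for 8 of the 15 block members detected then. Its depth lay within the range of the day, at 19203511 counts in all and 2079092 outside the dominant models. APZ42_023089, a member before the block that was lower at the later days, was lowest in this animal at day 6, at 2.52 CPM. This member was picked after its values were seen. Replicate 2 of 4 nM Hg/L was nearly as low in it at day 6, on 6 counts, though its block sum was only 3.85 CPM. APZ42_023101, also called lower at each later day, was not low in the 0.12 nM Hg/L animal. It had 11 counts there, against 0 to 18 over the day. Other members that were lower later were not compared in that animal.

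Which members were high differed between animals. Of the 40 animals with a block member at 5 CPM or more, APZ42_023119 led in 19, APZ42_023126 in 12 and APZ42_023121 in 9. In replicate 1 of 4 nM Hg/L at day 24, whose block sum was 642 CPM, APZ42_023119 stood at 352, APZ42_023136 at 169 and APZ42_023126 at 96.6 CPM, while APZ42_023150 had no counts. Replicate 3 of the same group was unlike it, with 100.9 CPM of APZ42_023126, 24.5 of APZ42_023132 and 21.5 of APZ42_023131 but only 6.30 of APZ42_023119 and 1.08 of APZ42_023136.

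The same contrast appeared at day 10. Replicate 3 of 4 nM Hg/L had 151.3 CPM of APZ42_023126 and 41.9 of APZ42_023121 but 1.54 of APZ42_023119. Replicate 1 of 1 nM Hg/L had 269 CPM of APZ42_023119, 66.7 of APZ42_023136 and 27.8 of APZ42_023130. Single animals of 1 day thus reached sums of 238 and 476 CPM through different members.

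**Figure D3:**
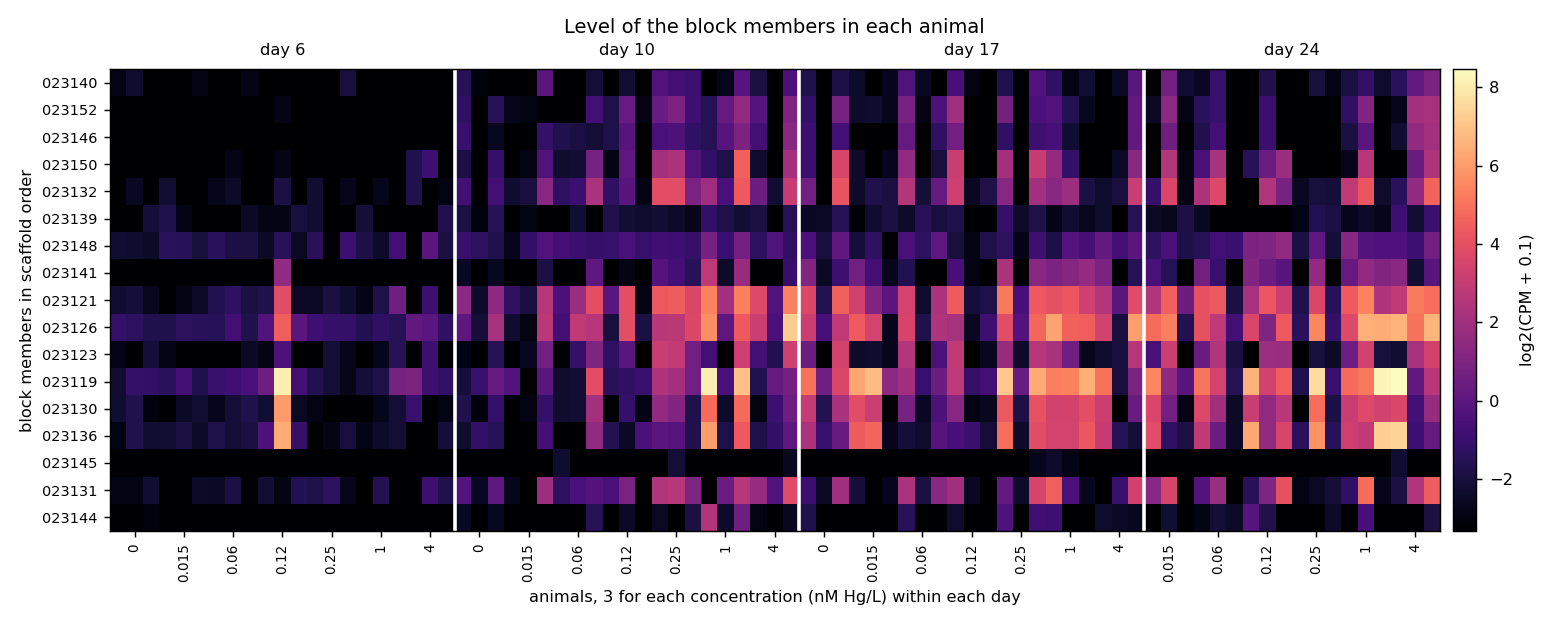
Level of each of the 17 block members (rows, in order along the scaffold) in each of the 81 animals (columns, by day and concentration) as log2(CPM + 0.1), shown by colour. Animals of days 10, 17 and 24 fall into ones with most members near 0 and ones in which several neighbours are high together, with APZ42_023119, APZ42_023130 and APZ42_023136 high in the same animals.

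Sets of members that were high together were chosen after their values were seen, and are given as counts. APZ42_023119, APZ42_023130 and APZ42_023136 were all at 5 CPM or more in 20 animals, and at least 1 of them in 28. All 20 animals with APZ42_023136 at 5 CPM or more also had both others at that level. APZ42_023130 overlaps both others on the opposite strand, so they could share reads, as could APZ42_023150 and APZ42_023132 below. At least 1 of APZ42_023132, APZ42_023150, APZ42_023123 and APZ42_023131 reached 5 CPM in 18 animals. Only 6 animals met both conditions, 14 had the trio without the other set, and 12 had a member of the other set without the whole trio. By day, the trio alone was seen in 1, 1, 6 and 6 animals at days 6, 10, 17 and 24, and the other set alone in 0, 3, 4 and 5.

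Ratios between members were not fixed. Where APZ42_023119 was at 5 CPM or more (28 animals), APZ42_023136 stood at 0.0815 to 0.841 of its level, with a median of 0.236, and APZ42_023130 at 0.0337 to 0.541, with a median of 0.258. Where APZ42_023126 was at 5 CPM or more (38 animals), APZ42_023121 ranged between 0.0617 and 3.36 times its level. Of the 14 animals with APZ42_023132 at 5 CPM or more, 12 had APZ42_023123 there too and 3 had APZ42_023136. The libraries share their depth across members, so these counts describe the animals only.

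**Figure D4:**
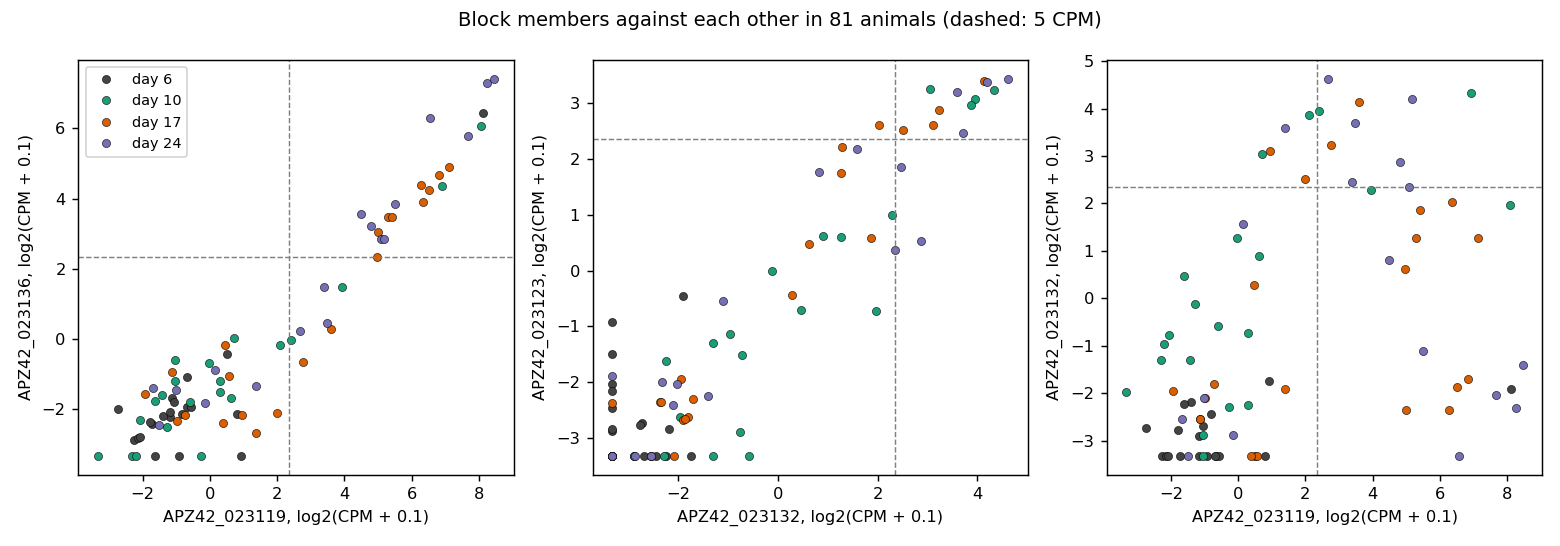
Levels (CPM, logarithmic axes) of pairs of block members in each of 81 animals: APZ42_023119 against APZ42_023136, APZ42_023132 against APZ42_023123, and APZ42_023119 against APZ42_023132, with dashed lines at 5 CPM. The first pair and the second pair each run along a diagonal, while in the third many animals are high in 1 member and low in the other.

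Between later days, 10 of 39 tested members were called at day 17 against day 10 (6 higher, 4 lower), beside 28.8% of all models, so the share was not above the background. In the block, APZ42_023119 was 2.86 higher on the log2 scale (SE 0.73, adjusted p = 0.0026 by edgeR's quasi-likelihood test), APZ42_023130 2.51 (SE 0.70, adjusted p = 0.0050), APZ42_023136 2.16 (SE 0.72, adjusted p = 0.018) and APZ42_023141 2.04 (SE 0.72, adjusted p = 0.027). None of these 4 passed with day and concentration as separate terms, where edgeR's adjusted p was 0.074, 0.087, 0.094 and 0.11 in that order. The 11 other tested block members were not called between days 17 and 10.

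At day 24 against day 17 in exposed animals, 2 members were called, both higher and none lower, beside 3.34% of all models (2.09% higher, 1.25% lower). Both are block members and were higher at day 24: APZ42_023136 by 2.46 (SE 0.73, adjusted p = 0.0445) and APZ42_023148 by 1.14 (SE 0.34, adjusted p = 0.0446) on the log2 scale by edgeR. These calls lie next to the threshold, and leaving out 1 library ended them in 19 and 22 of 36 fits. The block was drawn in part from calls of days 17 and 24 against day 6, so their p-values are a description only. The change of APZ42_023136 was 1.42 without replicate 1 of 4 nM Hg/L and 1.46 without replicate 2 of 0.25 nM Hg/L, both of day 24, and 1.08 with day and concentration as separate terms (adjusted p = 0.70 by edgeR).

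Outside the block calls went both ways, and most of the log2 changes were under 1.5 in size. The members with the lowest spread were APZ42_023092, APZ42_023124 and APZ42_023129, with a standard deviation of log2(CPM + 0.1) of 0.33, 0.35 and 0.37 over the 81 animals. APZ42_023092, at 219488 to 225819 with 14 exons, had medians of 4.71, 5.11, 5.58 and 4.57 CPM at days 6, 10, 17 and 24. It was called higher at day 10 (log2 change 0.22, adjusted p = 0.044 by edgeR) and at day 17 (0.30, adjusted p = 0.0082). APZ42_023091, at 163012 to 179660 with 15 exons, was higher by 0.40 at day 10 (adjusted p = 6.0e-04 by edgeR) and by 0.39 at day 24 (adjusted p = 0.0020).

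The member with the highest level per length lies after the block and was lower at the later days. APZ42_023159, of 5 exons at 412780 to 414407 on the plus strand, averaged 74.7 CPM per kb. Its lowest, median and highest levels were 30.8, 42.9 and 382 CPM at day 6, 23.2, 32.0 and 135.9 CPM at day 10, 10.2, 20.7 and 95.9 CPM at day 17, and 10.9, 25.1 and 71.1 CPM at day 24. Against day 6 its log2 change was -1.19 at day 17 (SE 0.22, adjusted p = 1.0e-05 by edgeR) and -1.17 at day 24 (SE 0.23, adjusted p = 4.1e-05). Against day 10 it was lower at day 17, by a log2 change of -0.75 (adjusted p = 0.0065 by edgeR).

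APZ42_023120, of 14 exons at 382083 to 387066, was the first abundant member after the block and was also lower later. Its medians were 21.2, 17.0, 11.8 and 9.99 CPM at days 6, 10, 17 and 24. Its log2 change against day 6 was -0.76 at day 17 (SE 0.12, adjusted p = 7.7e-07 by edgeR) and -0.95 at day 24 (SE 0.13, adjusted p = 2.6e-08), and against day 10 it was -0.55 at day 17 (adjusted p = 5.9e-04). APZ42_023160, of 7 exons at 426420 to 429464, went the other way, with medians of 1.82, 2.58, 3.51 and 4.14 CPM and log2 changes of 0.80, 0.83 and 1.31 against day 6 (adjusted p = 4.5e-05, 2.8e-05 and 1.3e-08 by edgeR).

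Of all members, the lowest adjusted p against day 6 on each later day was that of APZ42_023089, named after its values were seen, a model of 10 exons at 182898 to 187654, before the block. It ran between 2.52 and 8.59 CPM at day 6 with a median of 5.47 CPM, and its medians were 1.96, 2.01 and 2.18 CPM at days 10, 17 and 24. The log2 change against day 6 was -1.43 (SE 0.14), -1.25 (SE 0.14) and -1.23 (SE 0.15), with edgeR's adjusted p = 1.8e-12, 1.0e-10 and 1.3e-09. The 3 later days overlapped almost wholly.

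Across concentrations few of the members' calls held with every library left out in turn. At 4 nM Hg/L against concentration 0, averaged over days 6, 10 and 17, edgeR called 0 of 39 members, beside 0.559% of all models (0.402% higher, 0.158% lower). Limma-voom called 1 (beside 2.88% of all models). At an unadjusted p under 0.05 edgeR had 6, and DESeq2 called 2 after adjustment. Neither of these 2 counts was set beside all models, so they are not read as signal. The lowest p was that of APZ42_023159, with a log2 change of 1.13 (SE 0.33, adjusted p = 0.087 by edgeR). Its highest level at days 6, 10 and 17 fell in the library of that day with the fewest counts outside the dominant models. These libraries held 465099, 767609 and 673117 such counts, and the part of depth in its concentration comparisons was not tested. For APZ42_023126 of the block the log2 change was 2.78 (SE 1.07, adjusted p = 0.21 by edgeR).

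Any difference among the 7 concentrations, averaged over days 6, 10 and 17, was called by edgeR for 2 members, beside 7.83% of all models. These were APZ42_023159 (adjusted p = 0.0068) and APZ42_023160 (adjusted p = 0.013). The first was lost when replicate 2 of 4 nM Hg/L, day 10, was left out (adjusted p = 0.066 by edgeR), and the second when replicate 1 of 1 nM Hg/L, day 10, was left out (adjusted p = 0.058). With day and concentration as separate terms over the 81 libraries, edgeR called 9 members, beside 10.9% of all models. Of these 6 lie in the block (APZ42_023144, APZ42_023136, APZ42_023141, APZ42_023119, APZ42_023130 and APZ42_023126, with adjusted p of 0.0036 to 0.026 by edgeR). Limma-voom called 8, beside 36.5% of all models.

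At day 6, 7 members were called for any difference among concentrations, beside 3.72% of all models. Of these, 5 are block members, and all 5 calls (APZ42_023130, APZ42_023136, APZ42_023119, APZ42_023141 and APZ42_023121) went to an adjusted p of 1 by edgeR without the 0.12 nM Hg/L animal described above. APZ42_023104, a single-exon model at 190853 to 191997, was called (adjusted p = 0.0020 by edgeR) through replicate 1 of 0.015 nM Hg/L at 4.73 CPM, and had an adjusted p of 1 without it. The remaining call was that of APZ42_023159.

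APZ42_023159 at day 6 stood at 69.2, 281 and 382 CPM at 4 nM Hg/L, against 36.8, 38.6 and 40.1 CPM at concentration 0. The animals of 1 nM Hg/L had 37.1, 45.0 and 157.9 CPM. All 3 animals at 4 nM Hg/L were above all 3 at concentration 0 (adjusted p for any difference among the 7 concentrations = 5.3e-04 by edgeR). These libraries were also shallower, with 465099, 760586 and 1940755 counts outside the dominant models at 4 nM Hg/L, against 2140041 to 2596374 at concentration 0, and the part of depth in the result was not tested. The call ended without replicate 2 of 4 nM Hg/L (adjusted p = 0.14 by edgeR).

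At day 10, 6 members were called for any difference among concentrations, beside 7.85% of all models. They were APZ42_023144, APZ42_023119, APZ42_023136, APZ42_023130 and APZ42_023141 of the block and APZ42_023160. Without replicate 1 of 1 nM Hg/L, the animal with a block sum of 476 CPM, none was called, and edgeR's adjusted p ran between 0.055 and 0.31. At day 17 edgeR called only APZ42_023104, beside 6.75% of all models (adjusted p = 0.0082). It had 0.765, 1.19 and 1.76 CPM at 4 nM Hg/L, 0.0896, 0.320 and 1.85 CPM at 0.06 nM Hg/L, 0, 0.0682 and 2.22 CPM at concentration 0, and no counts in the 6 animals of 0.12 and 0.25 nM Hg/L, and the call held with any 1 library left out.

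At day 24, among the 6 exposed concentrations, edgeR called 5 members outside the block and none inside it, beside 12.7% of all models. APZ42_023094, of 4 exons at 145786 to 161140, had 28.1, 29.9 and 48.1 CPM at 0.12 nM Hg/L, while the 15 other animals of the day lay between 7.96 and 23.3 CPM (adjusted p = 0.0029 by edgeR). APZ42_023125 had 0.208, 0.415 and 0.523 CPM at 0.12 nM Hg/L and 0.421 to 1.96 CPM in the others (adjusted p = 0.013 by edgeR). The 3 other calls were APZ42_023091 (adjusted p = 0.023), APZ42_023120 (0.032) and APZ42_023093 (0.040). The libraries of 0.12 nM Hg/L at day 24 had 408047 to 601797 counts outside the dominant models, at the low end of the 81, and the part of depth was not tested. The calls of APZ42_023091, APZ42_023120 and APZ42_023093 were lost without replicate 1 and also without replicate 2 of that group, that of APZ42_023094 without replicate 1 and that of APZ42_023125 without replicate 2.

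On the rank of concentration among exposed animals, averaged over the 4 days, 3 members were called, all higher with rank. This is 7.69% of the tested members, not above the 8.87% of all models (6% higher, 2.86% lower). APZ42_023126 was higher by 0.49 on the log2 scale per rank (SE 0.15, adjusted p = 0.032 by edgeR), APZ42_023131 by 0.53 (SE 0.17, adjusted p = 0.032) and APZ42_023125 by 0.10 (SE 0.03, adjusted p = 0.031). After day 6, the medians of APZ42_023126 were 2.61, 6.54, 5.88 and 1.87 CPM at 0, 0.015, 0.06 and 0.12 nM Hg/L, and 6.43, 22.9 and 32.2 CPM at 0.25, 1 and 4 nM Hg/L. For this member the 2 highest concentrations held the highest medians, and the medians of the others followed no order. For APZ42_023131 the medians were 0.0558, 0.733 and 0.577 CPM at 0.015, 0.06 and 0.12 nM Hg/L. They were 1.05, 0.566 and 3.08 CPM at 0.25, 1 and 4 nM Hg/L, so 1 nM Hg/L lay low. For APZ42_023125 they were 1.12, 1.14, 1.07, 1.34, 1.51 and 1.43 CPM in the same order. The 3 calls were lost in 6, 12 and 8 of the 72 fits with 1 library left out.

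**Figure D5:**
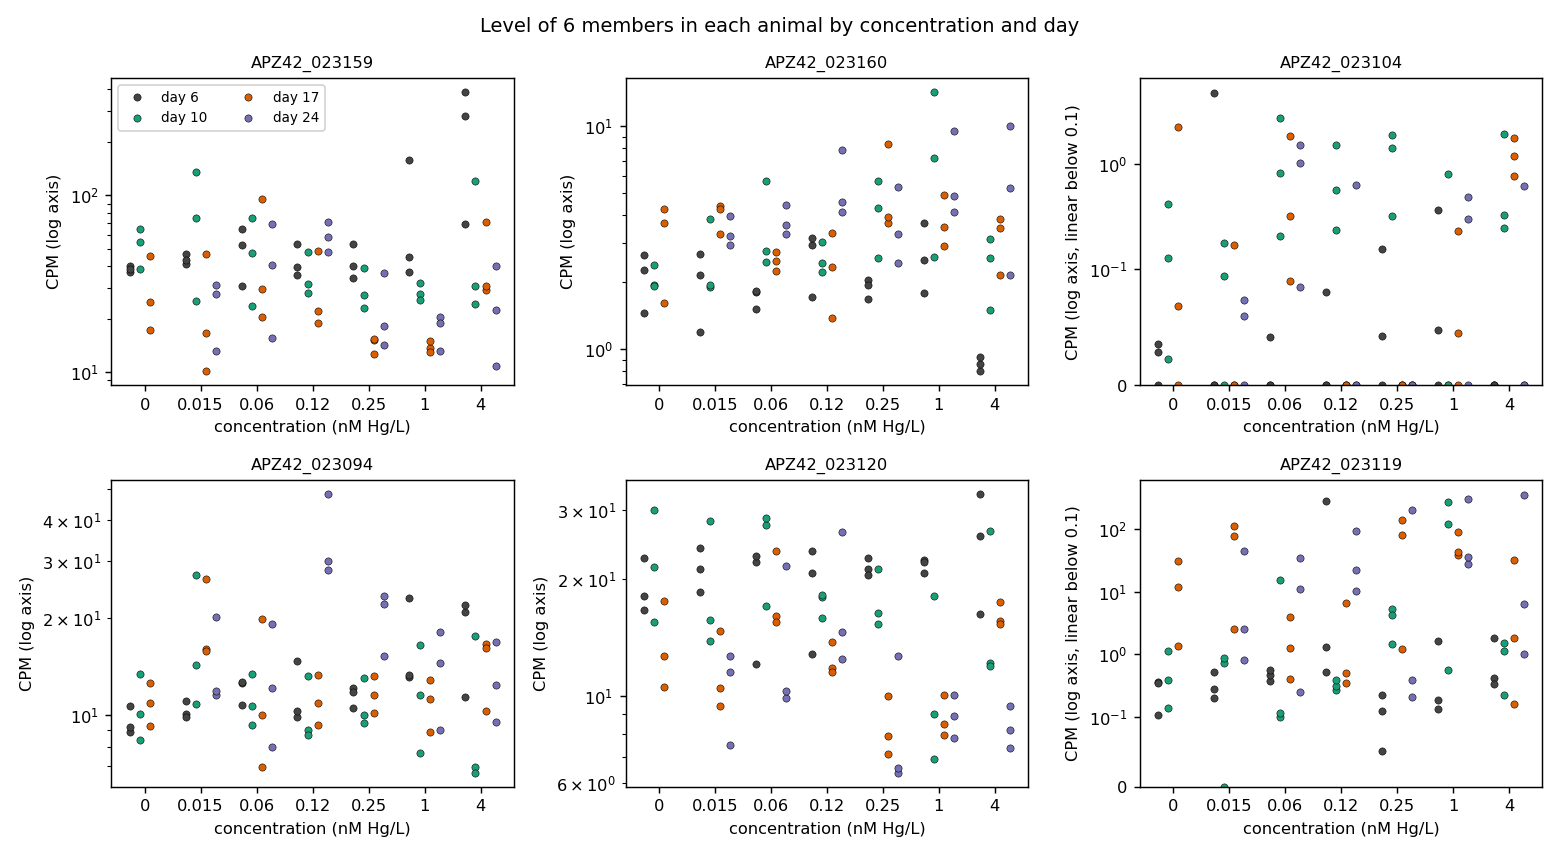
Levels (CPM, logarithmic axis) of APZ42_023159, APZ42_023160, APZ42_023104, APZ42_023094, APZ42_023120 and APZ42_023119 in each animal by concentration, coloured by day. APZ42_023159 stands at 69.2, 281 and 382 CPM at 4 nM Hg/L on day 6, and APZ42_023094 at 28.1, 29.9 and 48.1 CPM at 0.12 nM Hg/L on day 24.

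Concentration effects that differed between days were called by edgeR for 9 of 39 members, beside 9.25% of all models: 4 in the block (APZ42_023119, APZ42_023130, APZ42_023136 and APZ42_023141) and 5 outside it (APZ42_023093, APZ42_023094, APZ42_023104, APZ42_023159 and APZ42_023160). Without the 0.12 nM Hg/L animal of day 6 with a block sum of 467 CPM, 4 members were called, none of them in the block.

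The block as a whole was high most often at 1 and 4 nM Hg/L with the days after day 6 pooled, as a description with no test. After day 6, animals with a block member at 5 CPM or more numbered 2 of 6 at concentration 0, 5, 6 and 5 of 9 at 0.015, 0.06 and 0.12 nM Hg/L, and 6, 8 and 7 of 9 at 0.25, 1 and 4 nM Hg/L. Median block sums were 9.29 CPM at concentration 0 and, in the same order, 24.4, 19.02, 38.7, 71.6, 188 and 93.2 CPM. Concentration 0 lacks day 24, when levels were highest. With days 10 and 17 only, the counts were 2, 3, 4, 2, 5, 5 and 4 of 6 animals, and the median sums 9.29, 14.3, 16.03, 2.73, 71.9, 174.5 and 48.6 CPM, and by these sums, though not by the counts, 0.25, 1 and 4 nM Hg/L stayed above the 4 lower groups.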

How the data were processed

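RNA was measured in 84 whole animals, 1 library each. The authors' table, as deposited, gives raw whole-number counts for every gene model, beside exon positions per the file headers. The submitters' processing notes name STAR 2.7.5b. Which genome build, annotation, counting tool and strand setting were used is not given here, and coordinates are those of the table. No ID was found in the gene table used for names, so no names were used.

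Groups came from the concentration and day labels. Counts of 81 libraries were fitted in R 4.3.3 with edgeR 4.0.16: filterByExpr with a minimum count of 10 left 12690 models, with trimmed mean of M-values scaling. A robust quasi-likelihood fit had 27 group means and 54 residual degrees of freedom, and comparisons were contrasts of these, called at a Benjamini-Hochberg adjusted p under 0.05. The 3 libraries of concentration 0 at day 24 were left out for low depth and enter an alternative fit. The main fit and its comparison of day 10 with day 6 were tested on simulated counts, and the other comparisons were not. Ratios of mean CPM use a floor of 3 counts over the group, and intervals at 95% and floors cover counting error only. Spreads use log2(CPM + 0.1).

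The members, the block and the lists were chosen with earlier results of these data known. Named models are every block member; outside it, the 3 highest and 3 lowest called changes against day 6 among models averaging 5 CPM or more, the 5 highest levels per length, the 3 lowest spreads and up to 5 calls per concentration comparison. Alternatives were other scaling (DESeq2 size factors), no filter, an older quasi-likelihood form, all 84 libraries, no libraries under 500000 counts outside the dominant models, no dominant models, only the libraries compared, limma-voom (limma 3.58.1) with quality weights, DESeq2 1.42.0, and each library left out in turn. A model of day plus concentration was chosen after seeing the data.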

Additional observations from a re-analysis of the deposited data

Results flagged for a closer look

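Concentration effects that differed between days, tested as an interaction over the 81 libraries with edgeR's quasi-likelihood test, were called for 9 members.

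In the block these were APZ42_023136 (adjusted p = 0.0022 by edgeR), APZ42_023119 (adjusted p = 0.0032), APZ42_023130 (adjusted p = 0.0042) and APZ42_023141 (adjusted p = 0.029). Each was highest at day 6 in replicate 2 of 0.12 nM Hg/L, and without that animal edgeR's adjusted p was 0.052, 0.086, 0.30 and 0.57 in the same order. All 4 calls were thus lost without this animal, the first by a narrow margin. That of APZ42_023141 was lost in 6 of the fits that left out 1 library.

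Outside the block APZ42_023104 had the lowest adjusted p, 0.00053 by edgeR, and its call held with each library left out in turn. Its level was at 0 CPM in 12 of 21 animals at day 6, and its highest animal was at 4.73 CPM at 0.015 nM Hg/L on day 6. APZ42_023094 was called at 0.016 by edgeR, and its adjusted p was 0.11 once the first replicate of 0.12 nM Hg/L, day 24, was left out. APZ42_023159 was called at 0.022 by edgeR, with adjusted p of 0.052 and 0.073 when replicate 1 or replicate 2 of 4 nM Hg/L on day 6 was left out.

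The calls of APZ42_023093 (adjusted p = 0.038 by edgeR) and APZ42_023160 (adjusted p = 0.048) lay near the threshold and were lost in 14 and 60 of the 81 fits that left out 1 library.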

How the results depend on the processing

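Recounts of calls on the scaffold under other settings stayed within 1.5 times the reported count in 92 cases, among them every recount of days 10, 17 and 24 against day 6, and moved in 31; where no value below shows it, the cause was not tested. Calls at day 17 against day 10 went to 4 with day plus concentration, beside 22.9% of all models, a setting chosen after seeing the data (10 as reported). Calls at day 24 against day 17 (2 as reported) went to 0 with no filter, with the older form of the test, with only the libraries compared, with limma-voom and with day plus concentration, to 1 without libraries under 500000 counts outside the dominant models and to 7 with all 84 libraries. For 4 nM Hg/L against 0 (0 as reported), all 84 libraries gave 6, limma-voom 1 (beside 2.88% of all models) and DESeq2 2. Any difference among concentrations over days 6, 10 and 17 (2 as reported) gave 10 with all 84 libraries. It gave 8 with limma-voom (beside 36.5% of all models) and 9 with day plus concentration (beside 10.9%). At day 6 (7 as reported) only the libraries compared and limma-voom each gave 3, the latter beside 11.7% of all models. At day 10 (6 as reported) only the libraries compared gave 3. At day 17 (1 as reported) only the libraries compared gave 2, limma-voom 12 (beside 23.6% of all models) and DESeq2 3. At day 24 (5 as reported) no filter and the older form gave 2, all 84 libraries 11, no libraries under 500000 counts 3 and only the libraries compared 0. The rank slope (3 as reported) gave 0 with no filter, 1 with limma-voom (beside 7.53% of all models) and 5 with DESeq2. Effects that differ between days (9 as reported) gave 5 with no filter, 5 with the older form and 14 with limma-voom, the last beside 41.5% of all models. Recounts printed without a share were not set beside all models of the same fit, so they are not read as more or less signal.

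With 1 library left out, counts against day 6 ran between 17 and 25 (day 10), 18 and 21 (day 17), and 18 and 24 (day 24). They ran between 8 and 11 at day 17 against day 10, 0 and 3 at day 24 against day 17, and 0 and 1 at 4 nM Hg/L against 0. For any difference among concentrations they ran between 1 and 3 over days 6, 10 and 17, and within days between 2 and 7 (day 6), 0 and 7 (day 10), 1 and 3 (day 17), and 1 and 8 (day 24). The rank slope ran between 0 and 5, and effects that differ between days between 4 and 11. The 2 calls of day 24 against day 17 moved in 25 of 36 such fits. Others that moved a count over 1.5 times, by concentration in nM Hg/L, day and replicate, were 4, day 6, replicate 3 (4 nM Hg/L against 0 to 1); 1, day 10, replicate 1 and 4, day 10, replicate 2 (the average over days to 1 each); 0.12, day 6, replicate 2 (day 6 to 2, effects that differ between days to 4); and 1, day 10, replicate 1 (day 10 to 0). At day 17 replicates 3 of 0.25 and 1 of 4 gave 2, and replicates 3 of 1 and 2 of 0 gave 3. At day 24 replicate 3 of 0.25 gave 3, replicate 2 of 0.015 gave 8, and replicates 1 and 2 of 0.12 gave 2 and 1. The slope went to 5 without replicate 2 of 1, replicate 3 of 0.015 or replicate 3 of 0.06 at day 10 or replicate 2 of 0.015 at day 24, to 1 without replicate 3 of 4 at day 24 or replicates 1 or 2 of 0.015 at day 10, and to 0 without replicate 3 of 4 at day 10.

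The direction of APZ42_023162 at day 24 against day 6 reversed with all 84 libraries, to -0.017 on the log2 scale. That setting moved the median of all models by -0.20 at day 24 against day 6, -0.23 at day 24 against day 17 and 0.44 at 4 nM Hg/L against 0. No paired analysis was possible because replicate numbers were given in accession order. DESeq2 gave no adjusted p for APZ42_023144 at day 10; day plus concentration gives no test of concentrations within a day, of the slope or of effects that differ between days. Depth limits low levels, since 1 count is worth 0.0227 to 0.428 CPM.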

Other observations

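The 3 libraries of concentration 0 at day 24, used in no comparison, held 9, 10 and 13 counts on the block, which is 0.0107% to 0.0392% of their counts outside the dominant models. These shares lie between the medians of day 6 (0.00194%) and day 17 (0.104%), and depth allows no further reading.

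APZ42_023158, at 397135 to 402679 after the block, was named after its values were seen, because it varied between animals more than most members outside the block, while its days overlapped. Its spread of log2(CPM + 0.1) was 1.95, and its level ran between 0.0724 and 33.9 CPM over the 81 animals. It stood at 10 CPM or more in 16 animals and under 1 CPM in 26. Its medians were 2.20, 3.89, 3.04 and 1.09 CPM at days 6, 10, 17 and 24. It overlaps APZ42_023124 on the other strand, whose spread was 0.35.

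APZ42_023110 and APZ42_023104, at 193058 to 193905 and 190853 to 191997 before the block, are single-exon neighbours that were also uneven between animals. APZ42_023110 was at 1 CPM or more in 25 animals and APZ42_023104 in 12, of which 11 had both. Of the 16 animals with APZ42_023158 at 10 CPM or more, 13 had APZ42_023110 at 1 CPM or more, against 12 of the 65 other animals. These counts were chosen after the values were seen and have no test.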
